A study of Mus musculus with 8 samples.

Results

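Genes of the chemokine system were examined in RNAseq of intestinal epithelial cells (IECs) from the colon and the ileum of mice with and without the RNA helicase DDX5 in their gut epithelium. The members were chosen by name and annotation, with no measured value, as the protein-coding rows whose symbol starts with Ccl, Cxcl, Cx3cl, Xcl, Ccr, Cxcr, Cx3cr, Xcr or Ackr followed by a digit. There were 56 of them among 20229 protein-coding genes and 40178 genes of any type. Both tables listed 44, 4 were listed for the colon only and 8 for the ileum only, and a gene without a row in a table was taken as 0 there. At least 10 raw counts in 2 or more libraries were found for 23 of the 56 members, and the other 33 fell short of that.

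Chemokines are small proteins that draw leukocytes along a gradient by binding G protein-coupled receptors, and they are classed by the spacing of their N-terminal cysteines. In the gut, CCL25 from the small intestine attracts lymphocytes that carry CCR9, whereas CCL28 attracts plasma cells that carry CCR10. Atypical chemokine receptors (the Ackr genes) bind chemokines without classical G protein signalling and can remove them from the surroundings.

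The WTIEC group had the genotype DDX5(+/+), Vil1Cre(+) and the DDX5ΔIEC group had DDX5(fl/fl), Vil1Cre(+), so every mouse carried Cre under the Villin promoter, which is active along the gut epithelium. The labels give an age of 8 weeks. The study describes the pairs as cohoused littermates, and the cells were taken at steady state. There were 2 mice of each genotype, and each mouse gave 1 colon and 1 ileum library, for 8 libraries in 4 groups of 2. IECs were the cells shaken loose by EDTA after fat and Peyer's patches had been removed, with the ileum taken as the distal end of the small intestine. This fraction is enriched for epithelium and can hold other cells. In such bulk samples, fewer cells of a type and less RNA per cell cannot be told apart.

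The libraries held 11571061 to 22984283 counts on genes. Ddx5, the deleted gene, was at 771 and 706 CPM (read counts scaled to library size, with TMM over the 8 libraries) in the WTIEC colon and at 367 and 355 in the DDX5ΔIEC colon. In the ileum it was at 700.5 and 700.3 against 340 and 326. The log2 fold change of DDX5ΔIEC over WTIEC was -1.04 in the colon (SE 0.09) and -1.07 in the ileum (SE 0.18), and the groups did not overlap in either tissue. Repeat-like genes, 3 in number, took 0.000956% to 0.261% of the counts in the colon and 4.04%, 3.93%, 0.226% and 19.5% in the ileum, where the last value is DDX5ΔIEC replicate 2. In the colon libraries 22807 to 23747 genes had a count. In the ileum 31959 and 26974 genes did in WTIEC and 21705 and 30880 in DDX5ΔIEC. Summed markers of epithelium, 13478 to 21161 CPM, were far above those of any other cell type in every library, and enterocyte markers of the ileum followed the tissue labels.

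Structural classes of chemokines can be read from the genes of 6 ligands on which the results turn. Stretches of their coding sequence around the N-terminal cysteines are shown 5′ to 3′, with the 2 cysteine codons that define the class in capitals. They were read from GENCODE vM21 transcripts on GRCm38, the assembly also called mm10.
Ccl25: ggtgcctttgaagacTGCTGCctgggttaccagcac
Ccl28: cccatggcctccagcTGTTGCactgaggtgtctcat
Ccl6: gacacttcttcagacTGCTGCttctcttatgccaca
Ccl5: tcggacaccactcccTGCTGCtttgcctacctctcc
Cxcl16: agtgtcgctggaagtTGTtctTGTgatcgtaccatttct
Cx3cl1: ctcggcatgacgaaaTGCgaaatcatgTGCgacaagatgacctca
The codons are adjacent in the CC chemokines Ccl25, Ccl28, Ccl6 and Ccl5. They are split by 1 codon in Cxcl16 and by 3 codons in Cx3cl1. The stretch of Ccl25 spans chr8:4349894-4353917 on the plus strand and is split by an intron, and that of Ccl28 is chr13:119645877-119645912 on the plus strand. Those of Ccl6, chr11:83589371-83589406, Ccl5, chr11:83529227-83529262, and Cxcl16, chr11:70459112-70459150, are exonic and on the minus strand. The stretch of Cx3cl1 is chr8:94778036-94778080 on the plus strand, within an exon.

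The members lie mostly in clusters. Chromosome 11 holds 14 of them (4 with at least 10 counts in 2 libraries), chromosome 9 also holds 14 (6 with that many), and chromosome 5 holds 9 (5 with that many). Ccl5 (chr11:83525778-83530518), Ccl9 (chr11:83572919-83578636) and Ccl6 (chr11:83587882-83593087) are neighbours on the minus strand. The receptor genes Ccr9, Cxcr6, Ccr1 and Ccr3 lie on chromosome 9 between 123678439 and 124031689.

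A few ligands made up nearly all chemokine RNA in these cells. Ccl6, Ccl28, Ccl25, Cx3cl1, Ccl9 and Cxcl16 together held 94.8% to 97.7% of the members' summed CPM in each of the 8 libraries. Per kilobase of exon, the scale on which genes can be compared, Ccl6 was highest in both tissues, with a mean of 121.5 CPM per kb in the colon and 85.1 in the ileum over 4 libraries each. CCL6 is a CC chemokine found in rodents that acts on myeloid cells. Ccl28 followed in the colon at 38.2 CPM per kb, then Cx3cl1 at 9.72 and Ccl9 at 5.18. In the ileum the order after Ccl6 was Ccl25 at 31.5, Cx3cl1 at 22.0, Ccl9 at 12.9 and Ccl28 at 11.0 CPM per kb.

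**Figure D1:**
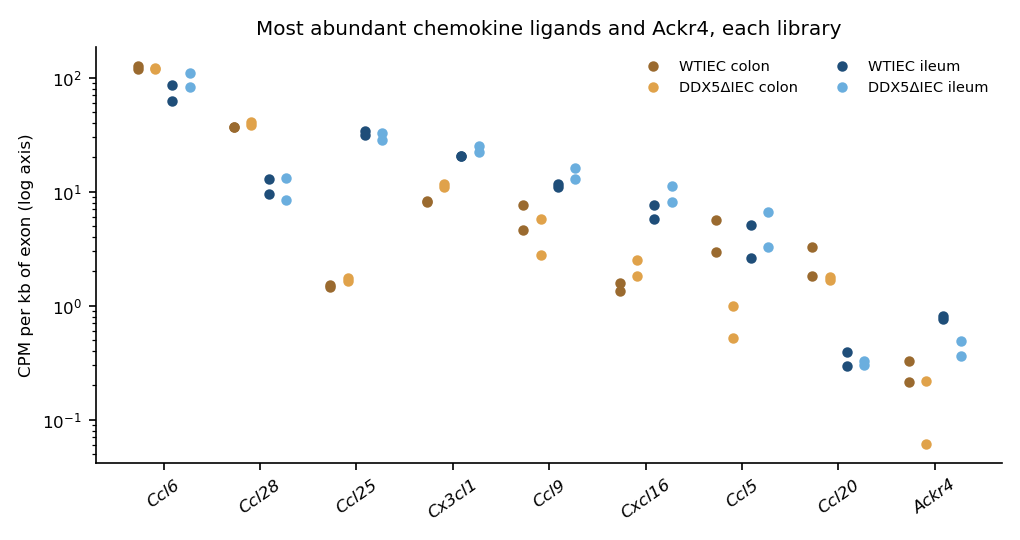
CPM per kilobase of exon, on a log axis, of 9 members in each of the 8 libraries, coloured by the 4 groups. Ccl6 is the highest in both tissues, Ccl28 is higher in the colon libraries and Ccl25 in the ileum libraries.

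Members were unevenly expressed by role, in groups drawn up with earlier results of these data known. Of the ligands grouped as epithelial and homeostatic 6 of 9 had at least 10 counts in 2 libraries, as did both CXCR3 ligands in the set and 3 of 4 CXCR2 ligands. Among inflammatory CC ligands (with Xcl1) 4 of 15 did, among receptors 6 of 19, among atypical receptors 2 of 4, and among lymphoid and stromal ligands 0 of 3. No library had more than 10 counts of any of the 33 members below that limit, and 20 of these had at most 10 counts over all 8 libraries. The highest sum among them, 45 counts, belonged to Cxcr3, the receptor of Cxcl9 and Cxcl10. At this depth Ccl2, a monocyte attractant, had 2 counts in a single DDX5ΔIEC colon library and 0 in the other 7.

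The largest difference in amount between colon and ileum was that of Ccl25. Its level was 10.9 and 11.3 CPM in the WTIEC colon, 12.1 and 12.9 in the DDX5ΔIEC colon, 251 and 232 in the WTIEC ileum, and 243 and 212 in the DDX5ΔIEC ileum. Every ileum library was thus well above every colon library, and the genotypes lay close together. The log2 ratio of ileum over colon was 4.44 in WTIEC (SE 0.13, adjusted p = 5.84e-07, edgeR quasi-likelihood test, two-sided, with Benjamini-Hochberg adjustment) and 4.18 in DDX5ΔIEC. Ccr9, the receptor of CCL25 and a marker of gut-homing lymphocytes, was also higher in the ileum. It had 11 and 6 counts in the WTIEC colon, 0 and 5 in the DDX5ΔIEC colon, 44 and 31 in the WTIEC ileum, and 31 and 22 in the DDX5ΔIEC ileum. Its log2 ratio was 2.32 in WTIEC (adjusted p = 0.0139, edgeR) and 4.34 in DDX5ΔIEC, the latter against few colon counts.

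Ccl28 had the opposite slope. Its level was 179.7 and 177 CPM in the WTIEC colon, 196 and 187 in the DDX5ΔIEC colon, 62.4 and 45.6 in the WTIEC ileum, and 64.1 and 41.2 in the DDX5ΔIEC ileum. The tissues did not overlap, with log2 ratios of -1.72 in WTIEC (adjusted p = 0.000459, edgeR) and -1.86 in DDX5ΔIEC. Of its receptors, Ccr10 was seen at 0 to 3 counts in each library, too few to compare. Ccr3, the eosinophil receptor of this ligand, had 25 counts over the 2 WTIEC ileum libraries and 1 over the WTIEC colon libraries, a ratio of 28.9 after scaling for depth (95% exact interval 4.74 to 1190, which covers counting error only). In DDX5ΔIEC it had 2 and 11 counts in the ileum libraries and 0 in the colon, at least 8.67-fold higher with a floor of 3 counts over the group. This rests on replicate 2 of the ileum, since the 2 counts of replicate 1 lie under that floor, and the adjusted call was lost without it or without either DDX5ΔIEC colon library.

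Ccl20, which attracts CCR6-bearing lymphocytes and dendritic cells to lymphoid follicles, was also higher in the colon libraries. It was at 4.62 and 2.597 CPM in the WTIEC colon, 2.54 and 2.37 in the DDX5ΔIEC colon, and 0.416 to 0.554 in the 4 ileum libraries. Its log2 ratio of ileum over colon was -2.84 in WTIEC (adjusted p = 0.000825, edgeR) and -2.43 in DDX5ΔIEC. Ccr6 had 0 to 3 counts in each library. Peyer's patches had been removed before the cells were taken, and the part of this in the ileum level of Ccl20 was not tested.

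Both ligands that are made as membrane-anchored proteins, Cx3cl1 and Cxcl16, were higher in the ileum. Cx3cl1, the ligand of CX3CR1 on macrophages, was at 32.0 and 32.4 CPM in the WTIEC colon and 80.8 and 80.5 in the WTIEC ileum. Its log2 ratio was 1.32 in WTIEC (adjusted p = 4.92e-05, edgeR) and 1.07 in DDX5ΔIEC. Cxcl16, the ligand of CXCR6, was at 4.78 and 4.05 CPM in the WTIEC colon and 17.2 and 22.9 in the WTIEC ileum, a log2 ratio of 2.18 (adjusted p = 0.000295, edgeR). For Cx3cr1, the receptor, 1 to 9 counts were found in each library.

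Other members differed between the tissues as well. Cxcl10, a CXCR3 ligand induced by interferon, was at 1.26 and 1.36 CPM in the WTIEC colon and 0.277 and 0.139 in the WTIEC ileum, a log2 ratio of -2.55 (adjusted p = 0.00712, edgeR). In DDX5ΔIEC the ratio was -0.77 and did not pass. Cxcl5, a neutrophil attractant that binds CXCR2, had 17 counts over the WTIEC colon libraries and 1 over the WTIEC ileum libraries, a colon over ileum ratio of 14.7 (exact interval 2.3 to 614). Its receptor Cxcr2 had no count in any colon library and 1 to 3 in each ileum library, too few to compare. Ccr1, a receptor of Ccl5 and Ccl9, rose by 1.79 on the log2 scale in the WTIEC ileum, and Ccl6 fell by 0.73 there (adjusted p = 0.00893 and 0.0169, edgeR).

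In WTIEC 7 of the 20 members that passed the filter on low counts were higher in the ileum and 5 were lower. Of the 13101 protein-coding genes tested, 19.8% were higher and 18.4% lower. In DDX5ΔIEC 10 members were higher and 3 lower, beside 20.7% and 18.4% of the same genes. The median log2 ratio over the 20 members was 0.135 in WTIEC and 1.37 in DDX5ΔIEC, against -0.00722 and -0.00249 over the protein-coding genes. Some passed the filter only through the tissue where they are high, such as Ccr3 in the ileum and Cxcl5 in the colon. The counts of calls and the medians are thus a description of the members that passed. Ccl25, Ccl28, Ccl20, Cx3cl1 and Cxcl16 passed in both genotypes without each of the 8 libraries in turn. The other 7 calls in WTIEC, Ccr9, Ccr3, Ccr1, Ackr4, Cxcl5, Cxcl10 and Ccl6, were all lost without WTIEC ileum replicate 2. Among members past the threshold in DDX5ΔIEC and not in WTIEC were Ccl5 and Ccl9, and the difference between the genotypes is tested further on.

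**Figure D2:**
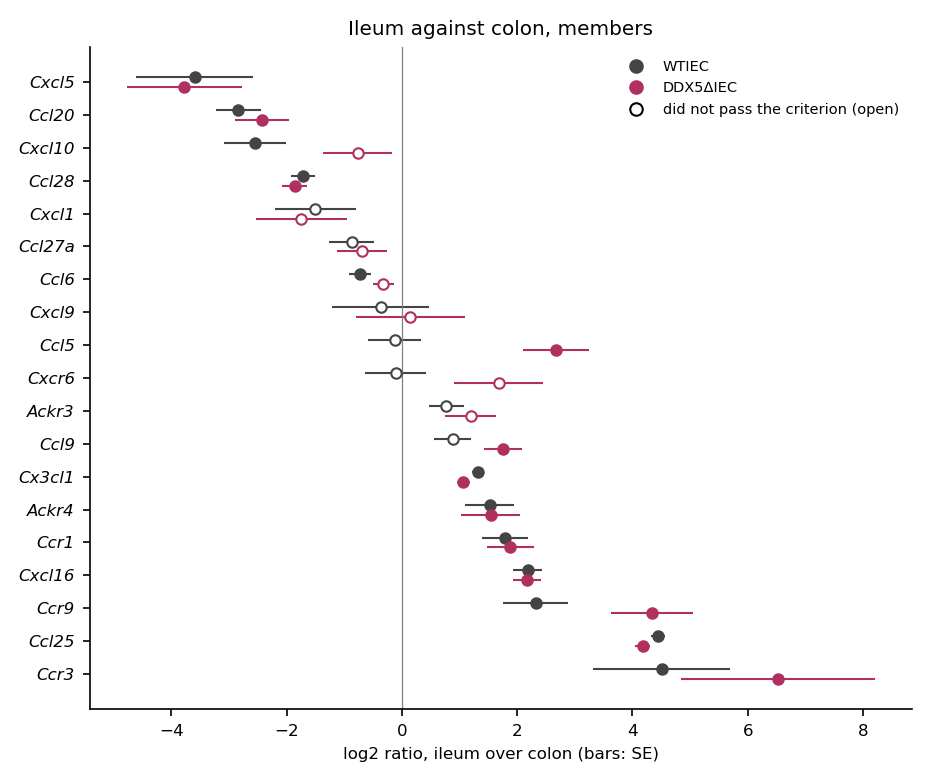
Log2 ratio of ileum over colon (with SE bars) of members in WTIEC (grey) and DDX5ΔIEC (magenta), with filled points at adjusted p under 0.05. Ccl25 lies to the right of 4 in both genotypes, and Ccl28, Ccl20 and Cxcl5 lie to the left of 0 in both.

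The promoters of the 2 ligands with opposite slopes and of Ackr3, the member with the clearest genotype difference, are shown as the 250 bases before the start in RefSeq on GRCm38.p6, 5′ to 3′. Capitals mark matches, on either strand, to the TATA box TATAAA, to the CDX core TTTATG, which reads CATAAA on the other strand, to an interferon response pattern (the word GAAA repeated after 2 free bases) or to a loose NF-kB pattern (GGG and a pair of C with 5 free bases in between).
Ackr3: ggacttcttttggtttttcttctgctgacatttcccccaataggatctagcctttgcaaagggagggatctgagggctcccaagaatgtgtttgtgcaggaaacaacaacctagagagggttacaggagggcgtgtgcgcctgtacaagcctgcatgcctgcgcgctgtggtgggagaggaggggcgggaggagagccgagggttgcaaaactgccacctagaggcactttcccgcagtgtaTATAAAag
Ccl25: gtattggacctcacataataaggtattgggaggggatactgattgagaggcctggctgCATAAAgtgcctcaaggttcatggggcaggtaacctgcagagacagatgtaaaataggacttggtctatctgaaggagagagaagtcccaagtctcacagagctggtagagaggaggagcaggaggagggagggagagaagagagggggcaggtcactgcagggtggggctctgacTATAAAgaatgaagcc
Ccl28: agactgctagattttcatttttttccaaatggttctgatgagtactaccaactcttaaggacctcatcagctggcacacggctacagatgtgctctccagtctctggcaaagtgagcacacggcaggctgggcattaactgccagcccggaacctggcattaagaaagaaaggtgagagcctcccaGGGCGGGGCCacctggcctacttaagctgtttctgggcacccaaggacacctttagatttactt
They are chr1:90203730-90203979, chr8:4349338-4349587 and chr13:119623569-119623818, all on the plus strand. Ccl25 has another start in RefSeq, with its 250 bases at chr8:4324960-4325209, and none of the patterns matched there. Among 47 promoters of the 43 members in the table, 14 held TATAAA, 8 TTTATG, 2 the interferon response pattern and 26 the NF-kB pattern. Of all 32841 promoters of the same length, 12.4%, 10.8%, 2.98% and 45.8% did. The 2 member promoters with the interferon response pattern were those of Cxcl10 and Cxcl14. The TATA and CDX patterns overlap in the letters ATAAA. A match of letters is a description of the sequence and not a binding site.

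In the colon, 5 of the 19 members tested were lower in DDX5ΔIEC than in WTIEC and 1 was higher, by the study's criterion of an absolute log2 change of 0.5 or more with an unadjusted p under 0.05. The criterion called 4.01% of 12557 protein-coding genes lower and 2.64% higher. The members' median log2 fold change was -0.374, against -0.00151 over all those genes, and 12 of the 19 were negative. The 19 are those that passed a filter on low counts. Some, such as Cxcr6, passed it through the WTIEC libraries only, so the calls and the median are a description of the members that passed. After adjustment, edgeR called 0 of the 19, as it called 0% of protein-coding genes, although 7 had an unadjusted p under 0.05. DESeq2 with the same block also called 0 members, and DESeq2 without it called 2, Ackr3 and Ccl5.

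Ackr3, an atypical receptor that takes up CXCL12, was lower in DDX5ΔIEC in both tissues. It was at 2.36 and 2.64 CPM (45 and 60 counts) in the WTIEC colon and at 0.552 and 0.501 CPM (10 and 11 counts) in the DDX5ΔIEC colon. In the ileum it was at 3.65 and 5.00 CPM (79 and 72 counts) in WTIEC and at 0.843 and 1.61 CPM (9 and 15 counts) in DDX5ΔIEC. The groups were far apart in both tissues. Its log2 fold change was -2.25 in the colon (SE 0.33, adjusted p = 0.223, edgeR) and -1.84 in the ileum (SE 0.35, adjusted p = 0.0478, edgeR).

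It passed the study's criterion in both tissues without each library in turn, with values of -2.32 to -2.16 in the colon and -2.32 to -1.42 in the ileum. The adjusted call in the ileum was less firm. It was lost without the replicate block (adjusted p = 0.449, edgeR), under DESeq2 with it (adjusted p = 0.438), under RLE scaling, and under every other alternative except the one with no filter on low counts, with adjusted p-values from 2.71e-06 to 0.449, and it was lost without any 1 library. CXCL12 itself was barely seen, with Cxcl12 at 1 to 7 counts in each library, and its signalling receptor Cxcr4 had 2 to 15. Stroma and endothelium also express Ackr3. The summed stroma markers were at 8.30 and 14.0 CPM in the WTIEC colon and at 10.8 and 3.46 in the DDX5ΔIEC colon. In the ileum they were at 2.81 and 2.01 CPM in WTIEC and at 4.31 and 2.78 in DDX5ΔIEC. Endothelial markers were at 4.78 and 3.26 against 5.46 and 4.15 CPM in the colon and at 5.12 and 4.65 against 5.997 and 7.28 CPM in the ileum. In the colon 4 stroma markers were tested, all negative with a median log2 fold change of -0.802, and Dcn was lower by the criterion. The part of stroma and endothelium in the level of Ackr3 was not tested.

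Ackr4, an atypical receptor for CCL19, CCL21 and CCL25, was lower in the DDX5ΔIEC ileum. It was at 4.11 and 4.37 CPM in WTIEC and 2.62 and 1.93 in DDX5ΔIEC, a log2 fold change of -0.88 (SE 0.31, adjusted p = 0.289, edgeR). Ackr4 did not pass there under DESeq2 with the block (-0.90) or without it (-0.88). With all 8 libraries in one edgeR fit and no block it was -0.89 and did not pass. Leaving 1 ileum library out of that fit gave -1.14 to -0.67. In the colon it was at 1.16 and 1.76 CPM in WTIEC and at 0.331 and 1.19 in DDX5ΔIEC. The colon groups overlapped and the value there, -1.02 (SE 0.43), did not pass. Without DDX5ΔIEC replicate 2 it was -2.13 and passed. Of its ligands, Ccl25 had log2 fold changes of 0.17 in the colon (SE 0.14) and -0.09 in the ileum (SE 0.14), and neither passed.

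Cxcl16 was higher in DDX5ΔIEC in both tissues. In the colon it was at 4.78 and 4.05 CPM in WTIEC and 7.62 and 5.47 in DDX5ΔIEC, a log2 fold change of 0.54 (SE 0.20, adjusted p = 0.404, edgeR). In the ileum it was at 17.2 and 22.9 CPM against 34.1 and 24.4, a log2 fold change of 0.55 (SE 0.20, adjusted p = 0.301, edgeR). The groups did not overlap in either tissue, but the ileum groups came within a small margin of each other. The colon call was lost under DESeq2 with the block (0.54) and without it (0.55). In edgeR it was lost without the block, also with all 8 libraries in one fit (0.56). Leaving 1 library out of that fit gave 0.68 (WTIEC replicate 1), 0.44 (WTIEC replicate 2), 0.31 (DDX5ΔIEC replicate 1) or 0.79 (DDX5ΔIEC replicate 2). The ileum call was lost under DESeq2 with the block (0.55) and held with all 8 libraries in one edgeR fit (0.55). Leaving 1 library out gave 0.35 (WTIEC replicate 1) or 0.28 (DDX5ΔIEC replicate 1), under the size the criterion asks for. Without WTIEC replicate 2 the value was 0.77, and without DDX5ΔIEC replicate 2 it was 0.79. In the colon Cx3cl1 was at 32.0 and 32.4 CPM in WTIEC and at 45.6 and 42.8 in DDX5ΔIEC, without overlap, and its log2 fold change of 0.44 (SE 0.10) was under the size the criterion asks for.

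**Figure D3:**
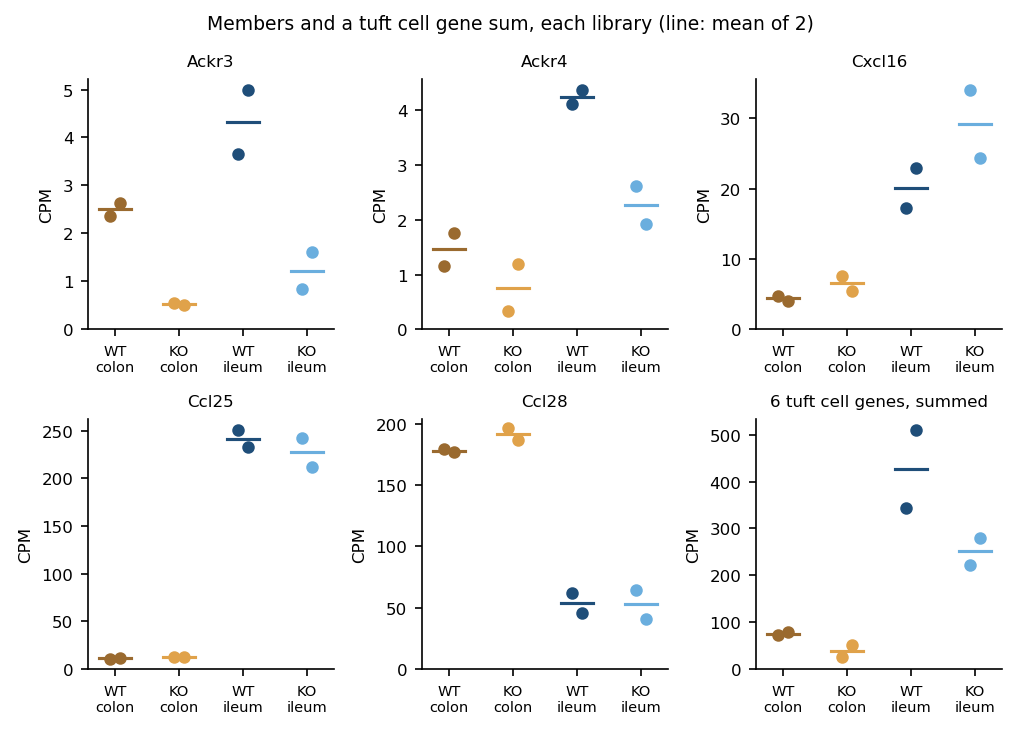
CPM of Ackr3, Ackr4, Cxcl16, Ccl25 and Ccl28 and of the sum of 6 tuft cell genes in each library, with a line at the mean of the 2 libraries of each group. Ackr3 is lower in both DDX5ΔIEC groups, and the tuft cell sum is lower in the DDX5ΔIEC libraries of each tissue.

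Tuft cell genes moved with the genotype in the same direction as Ackr3 and Ackr4. The sum of Dclk1, Trpm5, Pou2f3, Avil, Gfi1b and Alox5, named after their values had been seen, was at 71.6 and 78.3 CPM in the WTIEC colon and 24.8 and 52.1 in the DDX5ΔIEC colon. In the ileum it was at 344 and 509.7 CPM in WTIEC and at 222 and 280.3 in DDX5ΔIEC. No DDX5ΔIEC library reached the WTIEC libraries of its tissue. The part of tuft cells in the levels of the receptors was not tested.

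Ccl5, a T cell and natural killer cell product that attracts leukocytes, was lower in the DDX5ΔIEC colon. It was at 5.36 and 2.86 CPM (102 and 65 counts) in WTIEC and at 0.497 and 0.957 CPM (9 and 21 counts) in DDX5ΔIEC, a log2 fold change of -2.41 (SE 0.48, adjusted p = 0.264, edgeR). The groups did not overlap, although the WTIEC libraries lay far from each other. In the ileum the groups overlapped, at 4.85 and 2.50 CPM in WTIEC and 6.37 and 3.10 in DDX5ΔIEC (log2 fold change 0.37, SE 0.27). The colon value passed the criterion without each library in turn (-3.02 to -1.95).

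A receptor of lymphocytes was lower in the colon as well. Cxcr6, the receptor of Cxcl16 on T cells, had 24 and 15 counts in WTIEC and 2 and 6 in DDX5ΔIEC, a log2 fold change of -2.19 (SE 0.65, adjusted p = 0.339, edgeR). Under DESeq2 with the block Cxcr6 was at -2.33 and did not pass. Its ligand Cxcl16 was higher in these same libraries. The call of Cxcr6 rests on low counts and was lost without WTIEC replicate 1 (-1.71) or DDX5ΔIEC replicate 1 (-1.77). In the ileum Cxcr6 had 26 and 7 counts in WTIEC and 7 and 6 in DDX5ΔIEC.

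Markers of T cells and intraepithelial lymphocytes moved with these genes. In the colon 12 of the 15 markers were tested, 8 of them were lower and none higher, where 4.01% of protein-coding genes were lower. All 12 were negative, with a median log2 fold change of -1.89. Some, such as Cd6 with 0 CPM in both DDX5ΔIEC libraries, passed the filter on low counts through WTIEC only. The count and the median are thus a description of the markers that passed. Their summed level was 43.0 and 27.2 CPM in the WTIEC colon and 4.91 and 15.8 in the DDX5ΔIEC colon. In the ileum it was 74.1 and 33.1 CPM against 81.8 and 26.9, and 0 of 11 markers tested passed (median 0.110). Ptprc, which all leukocytes express, was at 22.2 and 19.9 CPM in the WTIEC colon and at 5.41 and 10.9 in the DDX5ΔIEC colon (log2 fold change -1.43). Ptprc in the ileum was at 46.2 and 67.8 CPM in WTIEC and at 42.0 and 42.2 in DDX5ΔIEC, without overlap, and its log2 fold change of -0.41 was under the size the criterion asks for. In the ileum the tuft cell sum was also lower in DDX5ΔIEC without overlap, whereas the T cell sums of the genotypes overlapped. The part of tuft cells in the level of Ptprc and that of leukocyte content in Ccl5 and Cxcr6 were not tested.

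**Figure D4:**
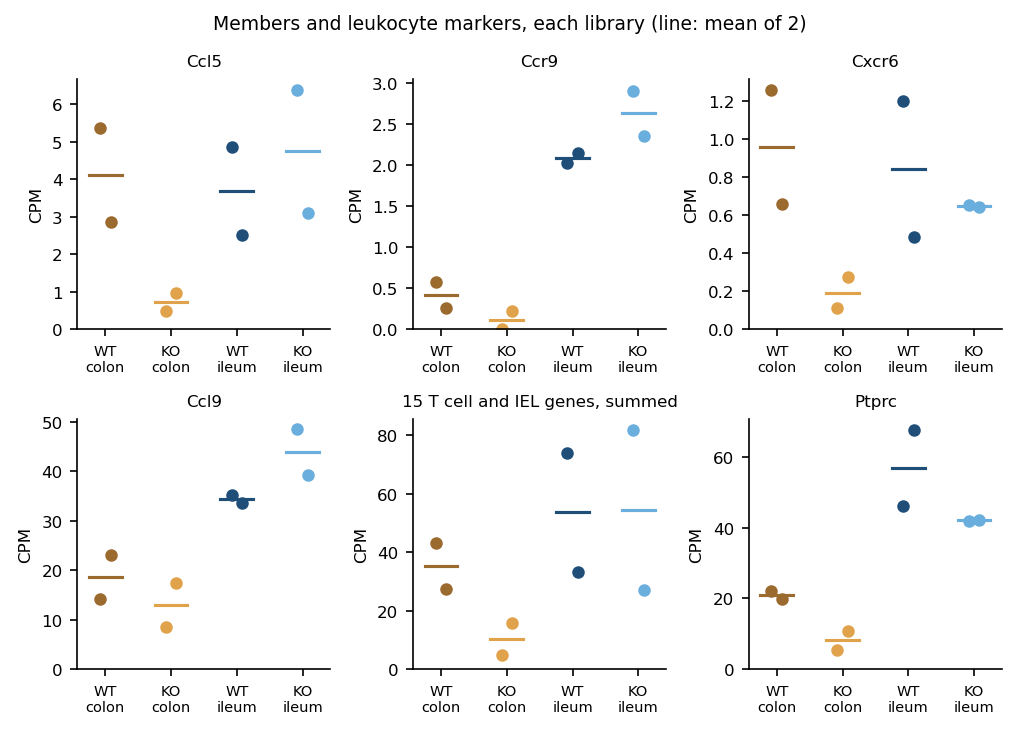
CPM of Ccl5, Ccr9, Cxcr6, Ccl9, Ptprc and the sum of 15 T cell and intraepithelial lymphocyte genes in each library, with a line at the mean of each group. In the colon both DDX5ΔIEC libraries lie below both WTIEC libraries for each of these except Ccl9, and in the ileum the T cell sums of the genotypes overlap.

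Ccl9, a CC chemokine of follicle-associated epithelium and myeloid cells that binds CCR1, was lower in the DDX5ΔIEC colon by the criterion, a call that rests on the replicate number as a block. Its level was 14.1 and 23.1 CPM in WTIEC and 8.44 and 17.4 in DDX5ΔIEC, so the groups overlapped, while within each replicate number DDX5ΔIEC was lower. The log2 fold change was -0.57 (SE 0.14, adjusted p = 0.307, edgeR), and without the block it was -0.53 and did not pass. With all 8 libraries in one fit and no block it was -0.52 and did not pass. Leaving 1 library out of that fit gave -0.12 (WTIEC replicate 2), -0.10 (DDX5ΔIEC replicate 1), -0.84 (WTIEC replicate 1) or -1.14 (DDX5ΔIEC replicate 2). In the ileum Ccl9 was at 35.1 and 33.6 CPM in WTIEC and at 48.6 and 39.2 in DDX5ΔIEC, a log2 fold change of 0.35 that was smaller than the criterion asks for.

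Ccl6, Ccl28 and Ccl25, among the ligands with the most RNA, did not pass the criterion in either tissue. In the colon Ccl6 was at 214 and 227 CPM in WTIEC and at 219.8 and 212 in DDX5ΔIEC, a log2 fold change of -0.04 (SE 0.09). Ccl28 had a value of 0.09 there (SE 0.08) and -0.05 in the ileum (SE 0.14). In the ileum Ccl6 was at 155 and 111 CPM against 198 and 147, with overlapping groups and a log2 fold change of 0.38 (SE 0.14). Among inducible ligands in the colon, Cxcl10 had a log2 fold change of -0.97 (SE 0.41) and Ccl20 one of -0.51. Cxcl5 had a value of 0.93, Cxcl9 one of -0.37 and Cxcl1 one of 0.29, and none of the 5 passed. Cxcl10 passed in 1 of 8 alternatives that left out no library.

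In the ileum, 2 of the 13 members tested were lower in DDX5ΔIEC and 1 was higher, while 2.83% of 12064 protein-coding genes were lower and 3.78% higher. Their median log2 fold change was 0.198, against 0.00399 over those genes, and 5 of the 13 were negative. After adjustment 1 member passed, Ackr3, which was lower, beside 0.323% of genes lower and 0.381% higher.

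**Figure D5:**
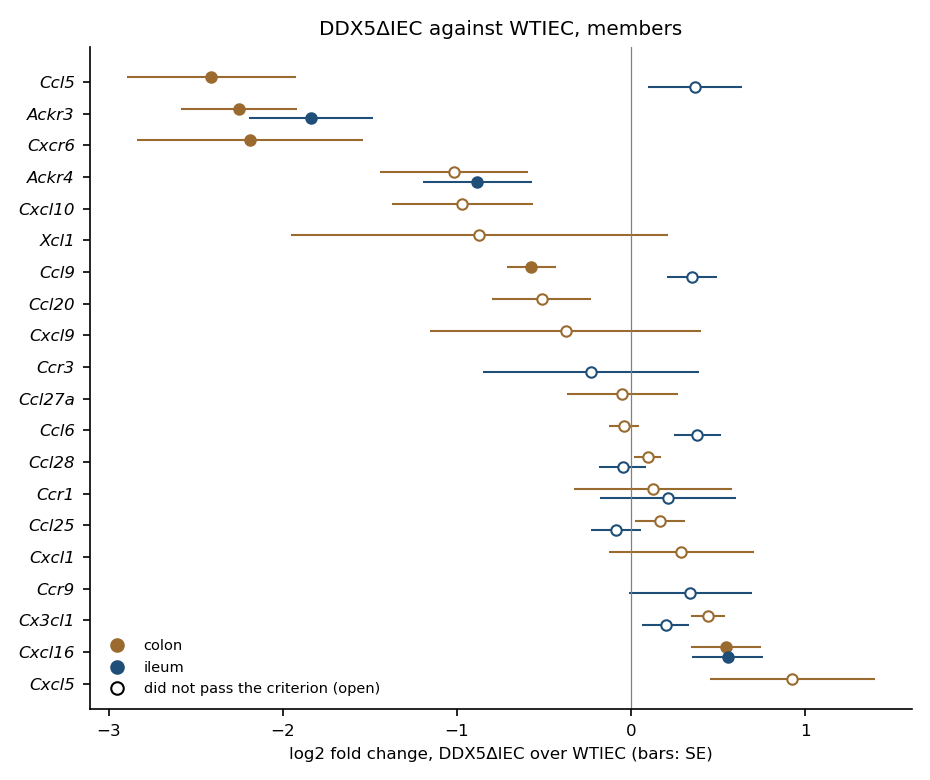
Log2 fold change of DDX5ΔIEC over WTIEC, with SE bars, of members in the colon (brown) and the ileum (blue), with filled points past the study's criterion. Ackr3 lies below -1.8 in both tissues, whereas Ccl5 lies below -2 in the colon and above 0 in the ileum.

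The difference of the genotype effect between tissues was tested in a single fit of the 8 libraries. Of 20 members 0 passed at an adjusted p under 0.05 by edgeR, where 0.0153% of the protein-coding genes did. DESeq2 also called 0 members, and 2 had an unadjusted p under 0.05 in edgeR. The smallest p was that of Ccl5, with a difference of 2.80 on the log2 scale (SE 0.74, adjusted p = 0.956, edgeR). For Ccl9 it was 0.87 and for Ackr3 0.42. Without a filter on low counts Ccl5 passed (adjusted p = 2.04e-06, edgeR), in a fit that raised the adjusted calls over all genes from 2 to 210. This was the only 1 of 6 alternatives that called Ccl5.

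Other genes of the pathway were described from a list of 45, of which 39 were tested in each tissue. Most carry receptor signals inside the cell, and the list also holds surface proteases (Adam10, Adam17 and Dpp4), the receptors Ccrl2 and Cmklr1 and the ligands Pf4 and Ppbp. In the colon 11 of 39 were lower in DDX5ΔIEC and 0 higher, with a median log2 fold change of -0.233, where 4.01% of protein-coding genes were lower. In the ileum 5 of 39 were lower and 0 higher, 2 of them after adjustment, with a median of -0.0515, where 2.83% of protein-coding genes were lower. The 5 were all among the 11, and they include the phosphoinositide 3-kinase subunit genes Pik3cg and Pik3r5, Rac2, a GTPase of blood cells, and Vav1, an exchange factor for Rac. Pik3r5 was at 8.25 and 9.86 CPM in the WTIEC colon, 2.37 and 5.06 in the DDX5ΔIEC colon, 43.7 and 61.8 in the WTIEC ileum, and 27.3 and 33.4 in the DDX5ΔIEC ileum. Its log2 fold change was -1.35 in the colon (adjusted p = 0.264, edgeR) and -0.78 in the ileum (adjusted p = 0.0359, edgeR).

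Vav1 fell by 1.17 and 0.79 on the log2 scale in the colon and the ileum. The other 6 lower in the colon were Arrb2, Gng2, Pik3cd, Plcb2, Prex1 and Rgs1. In the WTIEC tissue comparison 19 of 39 were higher in the ileum and 1 was lower, beside 19.8% and 18.4% of protein-coding genes. Leukocytes express most of these genes and tuft cells express several. Ptprc, the T cell sum and the tuft cell sum were lower in the DDX5ΔIEC colon, as given above. B and plasma cell sums were 253 and 243 CPM in the WTIEC colon and 288 and 239 in the DDX5ΔIEC colon. Granulocyte sums were 30.0 and 31.4 against 57.3 and 28.0, and macrophage and dendritic cell sums 36.1 and 33.2 against 21.9 and 31.2. In the ileum the tuft cell sum was lower, while the T cell sums overlapped. The part of these cells was not tested.

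A list of 26 interferon and NF-kB genes, inducers and companions of inducible chemokines, was described in the same way. In the colon 2 of 24 tested were lower, Tnf (-1.58) and Stat2 (-0.55), where 4.01% of protein-coding genes were. In the ileum 1 of 23 was higher, Il18 (0.51), where 3.78% of protein-coding genes were. The medians were -0.134 and 0.0429. Tnf was at 3.73 and 2.69 CPM in the WTIEC colon and at 0.883 and 1.23 in the DDX5ΔIEC colon. Stat2 was at 61.3 and 64.4 CPM against 34.6 and 53.4, with no overlap.

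The genes whose levels ran most like those of the 2 abundant tissue-specific ligands were found by Pearson correlation over the 8 libraries, as a description. Ccl25 was most like Gsr and Pitx1 (0.9994 each) and Slitrk6 (0.9991), and 1163 of 13081 genes exceeded 0.95. Ccl28 was most like Abcc3 (0.9956), B3galt5 (0.9944) and Rasd1 (0.9941), with 673 genes over 0.95. The libraries fall into 2 tissues and share mice, so that any gene with a large tissue difference scores high.

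Some members share sequence with other genes, where reads that match several places were left out of the counts. Of all 50-base words of its transcripts, Ccl27a shared 45.0% with other genes, Ccl27b among them, and Ccl21a shared 71.6%. The counts of these 2 are therefore uncertain. Cxcl2 shared 5.84%. Ackr3, Ackr4, Ccl5, Ccl6, Ccl25, Cx3cl1, Cxcl16 and Cxcr6 shared 0%.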

How the data were processed

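RNA of EDTA-released IECs was depleted of ribosomal RNA and sequenced as paired ends. The authors aligned reads to mm10 with STAR 2.6.1a and counted uniquely mapped reads over GENCODE exons with featureCounts. The deposited tables hold raw counts, one table a tissue, and list only genes with at least 1 count. They also hold normalised values and the authors' DESeq2 1.18.1 results (fold changes, errors, p-values), which were not used.

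Groups came from the genotype and tissue labels. Within each tissue, genotypes were compared with edgeR 4.0.16 (R 4.3.3) on the counts with TMM scaling, filterByExpr at a minimum count of 10, the replicate number as a block and a two-sided quasi-likelihood test, with Benjamini-Hochberg adjustment over all genes tested. The block stands for the harvest covariate in the study's methods; the labels give no harvest. Tissues and the interaction were fitted over all 8 libraries without a block. SE is the log2 fold change divided by the root of F and is approximate. The scripts were tested on simulated data.

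With 2 mice a group, p-values rest on few degrees of freedom. The members and lists were chosen with earlier results of these data known. Genes were named where they passed the study's criterion, were among the 8 highest in a tissue or the 10 largest tissue differences, or were ligand or receptor partners of these. DESeq2 1.42.0, RLE scaling, other filters and thresholds, and leaving out libraries were tried as alternatives. Each fit without 1 library used the other 7 together with no block, so the lone library of a group is assumed to vary like the other groups. DESeq2 without the block was added after seeing the data. Some genes are not reported here.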

Additional observations from a re-analysis of the deposited data

Results flagged for a closer look

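Cxcl11, a CXCR3 ligand, carries the annotation of a polymorphic pseudogene and so lay outside the rule on protein-coding rows, and its counts were used in no comparison. It was flagged because reads were seen there, with 130 raw counts over the 4 ileum libraries and 37 over the 4 colon libraries. By group it had 14 and 12 counts in the WTIEC colon, 5 and 6 in the DDX5ΔIEC colon, 47 and 34 in the WTIEC ileum, and 28 and 21 in the DDX5ΔIEC ileum. Scaled for depth this was 0.735, 0.528, 0.276 and 0.273 CPM in the colon and 2.17, 2.36, 2.62 and 2.25 CPM in the ileum. The difference was not tested.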

How the results depend on the processing

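With 2 libraries a group, small differences could not be seen, and a member under about 10 counts could not be compared. The colon called 6 members at the study's criterion and 3 under DESeq2 with or without the block. The ileum called 3, against 1 under DESeq2 with the block and 1 where an absolute log2 change of 1 or more was asked for. The interaction called 0, and 1 without a filter on low counts. Leaving out 1 library, with the other 7 fitted together and no block, gave 3 to 9 calls in the colon, 1 to 3 in the ileum, 5 to 14 for the tissues in WTIEC, 9 to 12 in DDX5ΔIEC. The cause of these differences was not tested; the fits without 1 library also lack the block. The lowest counts came without WTIEC or DDX5ΔIEC replicate 1 in the colon (3 each), without DDX5ΔIEC replicate 1 in the ileum and without WTIEC ileum replicate 2 for the WTIEC tissues (without WTIEC colon replicate 2 it was 7). Over all 15362 genes in the colon, edgeR called 0 after adjustment and DESeq2 with the block 112. For single members 942 values kept direction and side of the threshold, 72 lost the threshold and 14 gained it. Another 44 values, all of results that had not passed in the main fit, changed direction. Of the results that had passed, 0 changed direction. Without the replicate block, the colon had 5 calls and the ileum 3, and the adjusted calls over all genes in the ileum went from 98 to 1. The set of colon calls changed there, since Ccl9 and Cxcl16 were lost and a member not called before was gained. Deviations of replicate 1 from the group means correlated at 0.00559 between genotypes in the colon and 0.24 in the ileum, so nothing in the labels or the colon data ties the numbers together. With the mouse as a replicate block, the tissue calls were 12 in WTIEC and 12 in DDX5ΔIEC, with 0 for the interaction.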

Other observations

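Chemokine-related genes whose names lie outside the rule were also low. Ccrl2, a receptor-like gene that binds chemerin and does not signal, was at 1.58 and 1.19 CPM in the WTIEC colon, 0.662 and 0.912 in the DDX5ΔIEC colon, 1.25 and 0.971 in the WTIEC ileum, and 0.750 and 0.749 in the DDX5ΔIEC ileum. Its genotype groups did not overlap in either tissue, and neither log2 fold change passed (-0.80 in the colon and -0.56 in the ileum). Pf4, a platelet chemokine, was at 0.263 to 0.773 CPM in the colon libraries and at 0 in 3 of the 4 ileum libraries.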
